A study of Mus musculus with 6 samples.

Results

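Reported targets of the microRNAs miR-302 and miR-367, most of them regulators of chromatin and transcription known from reprogramming studies, were examined in mouse hearts that overexpress both microRNAs. The genes were taken by name: Mbd2, Arid4b, Smarcc2, Kdm1a, Suz12, Nr2c2, Nr2f2, Dazap2 and Slain1. All 9 had a probe annotated to that gene alone, among 22180 genes measured. Where a gene had more than 1 such probe, the brightest by its mean over the 6 arrays was taken. The rule uses gene names and probe brightness.

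Each of 6 Affymetrix arrays measured total RNA of 1 sample of mouse heart, strain Mixed C57BL/6 x 129S6. The 3 control samples carried Nkx2.5-Cre alone. The 3 transgenic samples carried Nkx2.5-Cre together with R26R-miR302-367, a copy of the microRNA cluster at the Rosa26 locus that Cre switches on. Both groups therefore carry the Cre driver, which is active in cardiac progenitors and their descendants, so the cluster is not switched on in every cell of a whole heart. The source name and the harvest protocol give an age of 14 days after birth, whereas the age field says E14. Nothing in the labels states that the replicates are different animals, and the p-values cover only the spread from sample to sample, part of which may be technical. The number of arrays limits the precision.

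A microRNA pairs through its seed, bases 2 to 8 from its 5′ end, with sites mostly in the 3′ untranslated region of a messenger RNA, and lowers the stability or the translation of that messenger. The miR-302 and miR-367 cluster is best known from pluripotent stem cells, where it favours self-renewal and helps reprogramming. The chromatin regulators examined here write, remove or read chromatin marks or remodel nucleosomes, and lowering them has been proposed as one way in which the cluster acts in reprogramming. The arrays measure RNA, so a change in protein without a change in messenger level would not be seen.

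The guide sequences are shown because the seeds largely set which messengers can be bound. The table of mouse microRNAs used here (RefSeq, GRCm38.p6, plus strand) held the 3p arm for 4 of the 5 genes of the cluster, and that of miR-302a is named only. Capitals mark bases 2 to 8.
mmu-miR-302b-3p: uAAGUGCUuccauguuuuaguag
mmu-miR-302c-3p: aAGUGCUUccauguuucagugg
mmu-miR-302d-3p: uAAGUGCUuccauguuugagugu
mmu-miR-367-3p: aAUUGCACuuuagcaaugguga
They lie at chr3:127545275-127545297, chr3:127545406-127545427, chr3:127545665-127545687 and chr3:127545779-127545800. MiR-302b and miR-302d share 1 seed. The entry for miR-302c starts 1 base further in, so its bases 2 to 8 equal bases 3 to 9 of miR-302b. MiR-367 has a different seed. It is shared with miR-25, miR-32, miR-92a, miR-92b and miR-363, while miR-291a, miR-294 and miR-295 share that of miR-302b. Of the 9 genes encoding these other microRNAs, 4 had a probe of their own. Their log2 fold changes were 0.17 for Mir32, -0.01 for Mir92b, -0.06 for Mir92-2 and -0.0059 for Mir363, with limma adjusted p-values from 0.4347 to 0.9793.

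The cluster itself was on in every transgenic heart. The Mir302c probe read 3.60, 3.53 and 2.98 (log2 values) in the controls and 9.999, 9.97 and 9.97 in the transgenic hearts. Mir367 read 2.80, 2.94 and 2.69 in the controls and 7.41, 7.25 and 7.31 in the transgenic hearts. For both genes the groups lay far apart, and Mir302a, Mir302b and Mir302d were likewise higher in all 3 transgenic hearts. These probes report the microRNA genes. Mature microRNAs were not measured here.

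Among the 9 reported targets, Dazap2 fell in transgenic hearts and none rose. The other 8 did not pass the test (limma, adjusted p under 0.05 over all 22180 genes). That is 11.1% of the targets called, and over all genes tested 11.1% were called, 5.35% higher and 5.76% lower. The share of targets called was thus the same as the background. All 9 targets were brighter than the median gene, and this background was not matched for brightness. Over the targets, 4 log2 fold changes were negative and 5 positive, with a median of 0.09, against a median of -0.03 over all genes. No target changed by as much as 2-fold. For 5 targets all transgenic values lay on one side of all control values, higher for Arid4b, Kdm1a and Nr2c2 and lower for Nr2f2 and Dazap2, as was the case for 30.9% of all genes.

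**Figure D1:**
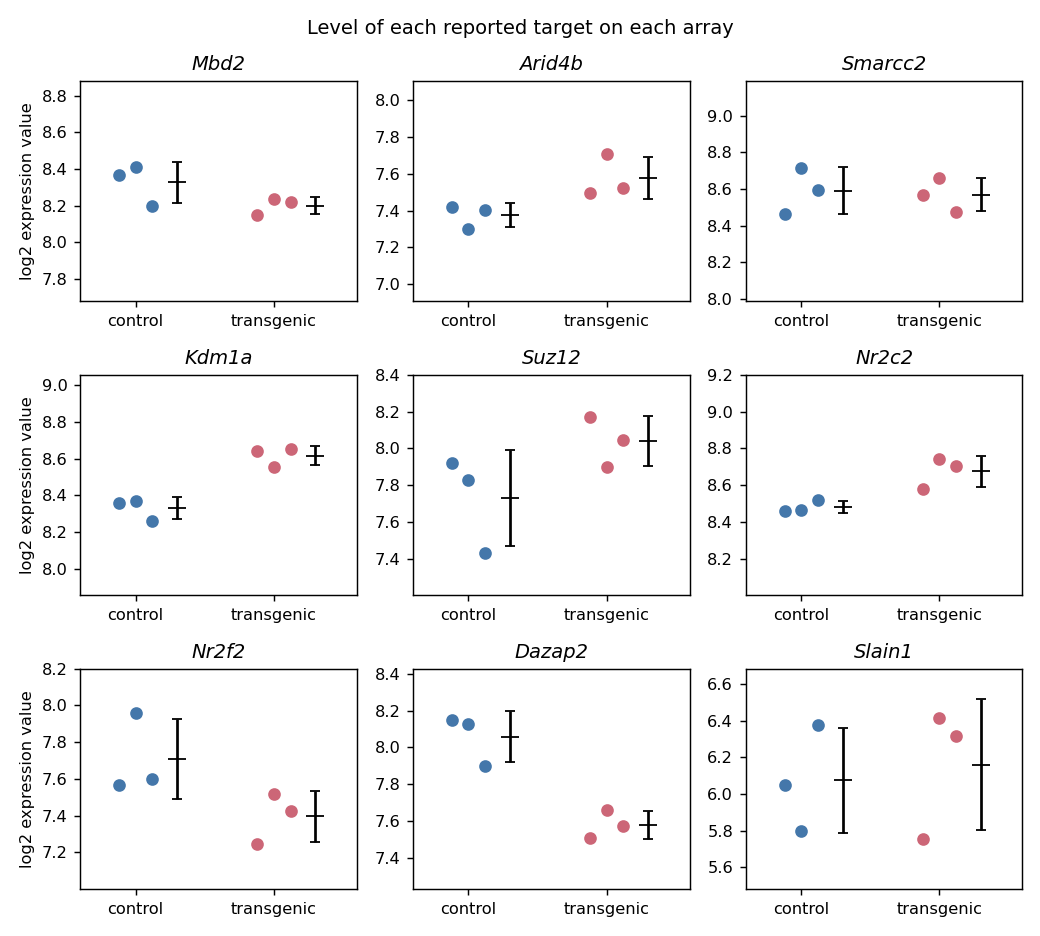
Log2 expression value of each of the 9 reported targets on each of the 6 arrays (points), with the mean and SD of each group of 3 (black bars); every panel spans the same range of log2 values. The groups of Arid4b, Kdm1a, Nr2c2, Nr2f2 and Dazap2 do not overlap, and Dazap2 is separated most clearly.

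Dazap2 encodes a small proline-rich protein that binds the germ cell RNA-binding protein DAZ and several signalling proteins. It read 8.15, 8.13 and 7.90 in the controls and 7.51, 7.66 and 7.57 in the transgenic hearts (log2 values). Every transgenic value lay below every control value, and the lowest control was the third. Group means were 8.06 ± 0.14 for controls and 7.58 ± 0.076 for transgenic hearts (SD, n = 3 each), a difference of -0.48 on the log2 scale (SE 0.0997, 95% interval -0.71 to -0.25, limma adjusted p = 0.01755). On the linear scale the transgenic level was 1.39-fold lower. This change lay at the 3.62 percentile of the changes of all genes, so a few per cent of genes fell further. It missed the threshold when control 1 was left out (adjusted p = 0.0684), and likewise for control 2 (0.0522), transgenic 1 (0.0744) and transgenic 3 (0.0584). It also missed it when every probe of the array was tested (0.0526). Its fold change kept its direction in all 14 alternative fits, between -0.56 and -0.43. Several of these fits alter only the variance or the set of genes, cannot move the fold change and left it at -0.48.

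The genes whose levels followed Dazap2 most closely over the 6 arrays were Plscr4, Ano6 and Wnt5a, with Pearson correlations of 0.998, 0.998 and 0.997. Over 6 points in 2 groups such values describe these arrays only. A correlation takes no account of the size of a change. The log2 fold changes were -0.44 for Plscr4, -0.09 for Ano6 and -0.10 for Wnt5a, beside -0.48 for Dazap2. Dazap1, another protein that binds DAZ, had a log2 fold change of 0.13 (adjusted p = 0.4273). Of the other 7 measured genes listed with Dazap2 as relatives or partners, Hipk2, a kinase that Dazap2 binds, fell by 0.29 (log2, adjusted p = 0.04683) and Sox6, a transcription factor of muscle fibre type, rose by 0.47 (0.01217). Over all genes tested 11.1% were called. The Hipk2 call was lost without any 1 of the 6 arrays (adjusted p 0.0803 to 0.139), and that of Sox6 without control 1 (0.0522) or transgenic 1 (0.0564).

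Kdm1a encodes LSD1, a histone demethylase that works with CoREST. It read 8.36, 8.37 and 8.26 in the controls and 8.64, 8.56 and 8.65 in the transgenic hearts. All 3 transgenic values lay above all controls. The difference was 0.29 with an SE of 0.084 (95% interval 0.097 to 0.48), or 1.22-fold, and did not pass (limma adjusted p = 0.06136). It passed with the dimmest genes, a share of 0.333, left out (0.03521) and with an intensity trend and robust variance (0.02458). The unadjusted interval lies above 0. The genes closest to Kdm1a over the 6 arrays were Dad1, Hint1 and Cnpy2, each with a Pearson correlation between 0.997 and 0.998. Their log2 fold changes were 0.21, 0.28 and 0.65.

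Suz12 encodes a core subunit of the PRC2 complex, which methylates histone H3 at silenced genes. Its control values were 7.92, 7.83 and 7.43, and its transgenic values 8.17, 7.90 and 8.04. The first control lay above the lowest transgenic heart, so the groups overlapped, and the third control stood below the rest. The difference was 0.31 (95% interval -0.0034 to 0.63, limma adjusted p = 0.2014). It was smaller without the third control, at 0.16, which is the lowest value over the 14 alternative fits.

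Arid4b encodes a subunit of the SIN3 histone deacetylase complex. It read 7.42, 7.30 and 7.40 in the controls and 7.50, 7.71 and 7.53 in the transgenic hearts. The groups did not overlap, but the gap between the highest control and the lowest transgenic heart was narrow. The difference of 0.20 (95% interval -0.0083 to 0.41) did not pass (limma adjusted p = 0.2147).

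Mbd2 encodes a protein that binds methylated DNA and brings in the NuRD complex. Its values were 8.37, 8.41 and 8.20 in the controls and 8.15, 8.24 and 8.22 in the transgenic hearts, with the third control inside the transgenic range. The difference of -0.13 did not pass (limma adjusted p = 0.4459). Its 95% interval ran from -0.33 to 0.08, which allows a fall of up to 20.6% and a rise of up to 5.73%.

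Smarcc2 encodes BAF170, a scaffold of the SWI/SNF (BAF) remodelling complex. It read 8.46, 8.71 and 8.596 in the controls and 8.57, 8.66 and 8.48 in the transgenic hearts, so all transgenic values lay within the control range. The difference was -0.02 (95% interval -0.25 to 0.20, limma adjusted p = 0.9239), the smallest of the 9 in size. The interval allows a fall of up to 15.7%.

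**Figure D2:**
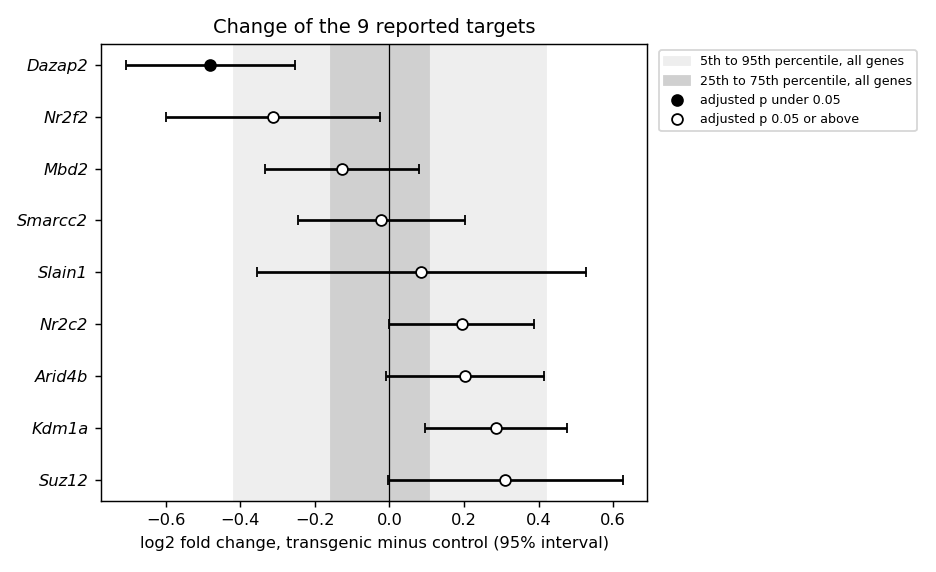
Log2 fold change (transgenic minus control) of each reported target with its 95% interval, ordered by value; the filled point passed an adjusted p of 0.05, and the shading gives the 5th to 95th and 25th to 75th percentiles of the changes of all genes. Dazap2, at -0.48, is the only point outside the 5th to 95th percentile range of -0.42 to 0.42.

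The remaining transcription factors are orphan nuclear receptors, which bind DNA without a settled natural ligand. Nr2f2, or COUP-TFII, is known for atrial identity in heart muscle and for venous and lymphatic identity in endothelium. Its values were 7.57, 7.96 and 7.60 in the controls and 7.24, 7.52 and 7.43 in the transgenic hearts. Every transgenic value was lower than every control value, and the second control stood above the rest. The difference was -0.31 with an SE of 0.13 (95% interval -0.60 to -0.03), and it did not pass (limma adjusted p = 0.1592). Without the second control it was -0.19 (adjusted p = 0.3436).

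Nr2c2, or TR4, a receptor with roles in metabolism and fertility, read 8.46, 8.46 and 8.52 in the controls and 8.58, 8.74 and 8.71 in the transgenic hearts. The transgenic values were all higher. The difference of 0.19 (95% interval -0.00081 to 0.39) did not pass (limma adjusted p = 0.1988).

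Slain1 encodes a protein that promotes microtubule growth at plus ends. It varied most within groups, with 6.05, 5.80 and 6.37 in the controls and 5.75, 6.41 and 6.31 in the transgenic hearts. Its difference was 0.09 with the widest interval of the 9, from -0.36 to 0.53 (limma adjusted p = 0.8364), which allows a fall of up to 21.9% and a rise of up to 44.1%. A second, dimmer Slain1 probe had a value of -0.03 (adjusted p = 0.9023 over all probes).

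In the fit reported here, the smallest change called among all genes was 0.28 on the log2 scale. The changes of Mbd2, Arid4b, Smarcc2, Nr2c2 and Slain1 were smaller than this. The direction of the fold change was kept in all 14 alternative fits for Mbd2, Arid4b, Kdm1a, Suz12, Nr2c2, Nr2f2 and Dazap2. Fits that alter only the variance or the set of genes cannot change a direction. Smarcc2 turned positive with array weights (0.02), without control 2 (0.04) and without transgenic 3 (0.02). Slain1 turned negative without control 2 (-0.05) and without transgenic 2 (-0.04).

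Closest relatives of 7 targets were compared on the same arrays, in a test added after the data were seen. The change of Kdm1a exceeded that of Kdm1b, the other histone demethylase of this kind, by 0.39 on the log2 scale. That of Nr2f2 lay 0.34 below that of Nr2f1 (difference -0.34). Both had the smallest two-sided p that an exact permutation test of 3 against 3 arrays can give, 0.1, and 0.35 after adjustment over the 7 pairs. The pairs Mbd2 and Mbd3, Arid4b and Arid4a, Smarcc2 and Smarcc1, Nr2c2 and Nr2c1, and Slain1 and Slain2 had differences from -0.28 to 0.29 and exact p-values from 0.2 to 1. None of these relatives passed the test itself. Mbd3 had a log2 fold change of -0.29 (limma adjusted p = 0.0809), Smarcc1 0.26 (0.1188), Nr2c1 0.25 (0.2749), Slain2 -0.21 (0.1563), Kdm1b -0.11 (0.5185), Arid4a -0.08 (0.6721) and Nr2f1 0.03 (0.8898).

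The other genes of the complexes and families to which the targets belong were then counted. Of 106 such genes, 14 rose and 4 fell, which is 17% called, beside 11.1% of all genes. The shares of all genes given here and for the lists below include dim genes and were not matched for brightness. With the dimmest genes left out, calls among all genes increased from 2465 to 3019, and among these genes to 19 higher and 7 lower. Whether these genes were called more often than others of like brightness was not tested. Their median log2 fold change was 0.04. The counts fell to between 6 and 12 higher and between 1 and 3 lower when 1 array was left out. Calls among all genes fell as well, to between 1171 and 2249. Leaving out transgenic 2 gave 6 higher and 1 lower, transgenic 1 gave 7 and 1, control 1 gave 7 and 2, transgenic 3 gave 8 and 3, and control 2 gave 9 and 1. The 106 genes gave 11 higher and 7 lower after a repeated quantile normalization, 11 and 4 with centred arrays, and 8 and 1 with every probe tested. Over all genes, 48.2% of the calls were higher in the reported fit, 36.4% after the repeated quantile normalization and 38.1% with centred arrays. All 18 calls among the 106 genes kept their direction in the 14 alternative fits, although several of these fits cannot move a fold change. The threshold was kept throughout for 4 genes, Rxrg, Zfpm2, Dpf3 and Rcor2. With every probe tested, Chd4, Arid2, Ctbp1, Ctbp2, Mapre3, Clasp1, Tacc3, Kif18b and Hipk2 were not called (limma adjusted p 0.0539 to 0.11). With the replicate number as a block, Arid2, Ctbp2, Mapre3, Clasp1 and Hipk2 were not called (0.0508 to 0.0944). The losses given gene by gene for these genes leave out those fits.

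**Figure D3:**
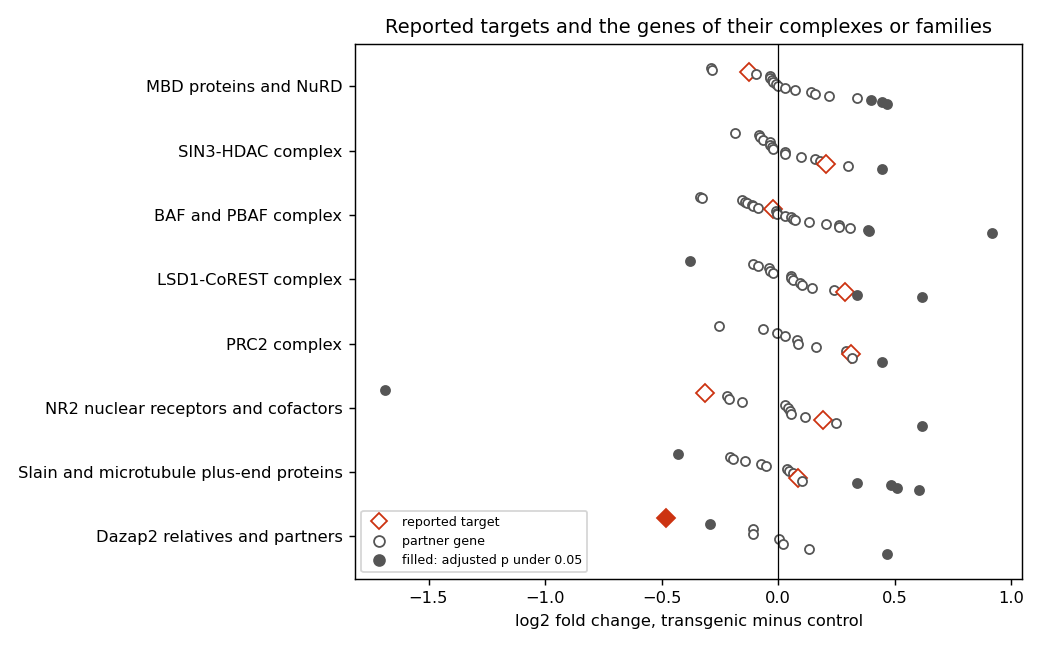
Log2 fold change (transgenic minus control) of the reported targets (red diamonds) and of the other genes of their complexes or families (grey circles), one row per list; filled symbols passed an adjusted p of 0.05. Some genes stand in several rows, such as Rbbp4, and Rxrg lies far to the left at -1.69.

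Around Smarcc2, 3 of 24 measured BAF and PBAF genes rose and 0 fell, with a list median of 0.01. Of these 24, 8 had an unadjusted p under 0.05, as had 25.4% of all genes. Dpf3, a BAF subunit of heart and skeletal muscle that reads histone marks, rose by 0.92 on the log2 scale, with a control mean of 6.94 ± 0.30 and a transgenic mean of 7.86 ± 0.25 (SD, n = 3 each, limma adjusted p = 0.01137). Arid1a, which defines BAF, rose by 0.39 (0.01765), and Arid2, which defines PBAF, by 0.38 (0.02734). The Arid1a call was lost without any array but control 3 (adjusted p 0.0506 to 0.0694). That of Arid2 was lost without any array but control 1 (0.0565 to 0.0941), and with centred arrays (0.0555).

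Around Kdm1a, 2 of 16 measured LSD1 and CoREST genes rose and 1 fell, with a list median of 0.06. Of these 16, 5 had an unadjusted p under 0.05, against 25.4% of all genes. Rcor2, a CoREST protein, rose by 0.62, with means of 6.77 ± 0.04 and 7.39 ± 0.19 (SD, n = 3 each, limma adjusted p = 0.008612). Rcor1, the founding CoREST, had a value of 0.05 (0.7868). The corepressor Ctbp1 fell by 0.38 (0.02112), while its relative Ctbp2 rose by 0.34 (0.03884). For Ctbp1 the threshold was missed without either of controls 1 and 2 or of transgenic 1 and 2 (0.0531 to 0.0912). For Ctbp2 it was missed without any 1 array (0.056 to 0.132), after quantile normalization was repeated (0.065) and with centred arrays (0.0742).

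Around Mbd2, 3 of 19 measured MBD and NuRD genes rose and 0 fell, with a list median of -0.0031. Of these 19, 7 had an unadjusted p under 0.05, against the same 25.4% of all genes. Chd3 and Chd4, the ATPases of NuRD, rose by 0.47 (limma adjusted p = 0.008642) and 0.40 (0.02173). Rbbp4, a histone-binding protein shared by NuRD, SIN3 and PRC2, rose by 0.44 (0.01475). Chd3 and Rbbp4 each have a dimmer probe, with values of -0.14 (adjusted p = 0.6219 over all probes) and -0.35 (0.2489), and both calls were lost when probes were averaged (0.337 and 0.843). The Chd4 call was lost without control 1 (0.0806), transgenic 2 (0.0915) or transgenic 3 (0.0719), and that of Rbbp4 without transgenic 2 (0.0546) or transgenic 3 (0.0569). Hdac1 and Hdac2, the deacetylases that NuRD, SIN3 and CoREST share, had values of -0.02 (0.9383) and -0.03 (0.8451).

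Rbbp4 was also the only gene called among 16 measured SIN3 genes, the list of Arid4b (median 0.0017), and among 11 PRC2 genes, the list of Suz12 (median 0.08). At an unadjusted p under 0.05 these lists held 2 of 16 and 4 of 11, against 25.4% of all genes. The catalytic subunits of PRC2 had values of 0.16 for Ezh2 (limma adjusted p = 0.3639) and -0.26 for Ezh1 (0.1655), and Eed, the third core subunit, had 0.08 (0.7757).

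Among 13 measured nuclear receptors of the NR2 class and their cofactors, 1 rose and 1 fell, with a list median of 0.04. Of these 13, 3 had an unadjusted p under 0.05, against 25.4% of all genes. Rxrg, the retinoid X receptor found in striated muscle, fell by 1.69 (SE 0.12), or 3.22-fold, with means of 8.16 ± 0.14 and 6.47 ± 0.18 (SD, n = 3 each, limma adjusted p = 0.0001847). Its relatives Rxra and Rxrb had values of 0.05 and 0.05. Zfpm2, or FOG2, a cofactor of GATA factors that also binds COUP-TFII, rose by 0.62 (0.00248). The list of Slain1 held 16 measured microtubule plus-end genes, of which 4 rose and 1 fell, with a median of 0.05. Of these 16, 6 had an unadjusted p under 0.05, against 25.4% of all genes. At the adjusted threshold 11.1% of all genes were called. The calls in this list numbered 1 with every probe tested and 1 to 4 without 1 array. Mapre2 (EB2) rose by 0.60 (0.01128), Tacc3 by 0.51 (0.02015), Kif18b by 0.49 (0.04601) and Clasp1 by 0.34 (0.03632), and Mapre3 (EB3) fell by 0.43 (0.03884). Tacc3 and Kif18b are known from the mitotic spindle. The Mapre2 call was lost without transgenic 2 (0.0518) and that of Tacc3 without control 1 (0.0611) or transgenic 1 (0.0637). The calls of Mapre3, Clasp1 and Kif18b held without 1 array only, control 1 for Mapre3 and control 3 for the others, and were lost without any of the other 5 (0.0623 to 0.153). A repeated quantile normalization also cost those of Clasp1 (0.058) and Kif18b (0.0836), and centring the arrays that of Clasp1 (0.0568).

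Markers of cell types were set beside these values, since in whole hearts fewer cells of a type and less RNA per cell cannot be told apart. Of 12 endothelial markers all were lower and 7 fell, with 2 calls left without control 1, transgenic 1 or transgenic 2 and 4 without control 2 or transgenic 3. Of 9 venous and lymphatic markers, 2 fell and 0 rose, with 6 negative and 3 positive values. They were Lyve1, of lymphatic endothelium and some macrophages, by 0.59, and Vwf by 0.39, and the Vwf call was lost without any 1 array (limma adjusted p 0.0632 to 0.134). The positive values were those of Prox1 (0.19), Pdpn (0.13) and Mmrn1 (0.30), all also known from lymphatic endothelium, with adjusted p-values from 0.158 to 0.419. On the log2 scale the summed level of the venous and lymphatic markers was 11.48 to 11.55 in controls. In transgenic hearts it was 11.25 to 11.39, below every control, as were the values of Nr2f2. Aplnr, the brightest of these markers, weighs most in this sum. Its log2 fold change of -0.30 did not pass (limma adjusted p = 0.0952). Of 9 atrial muscle markers 5 rose (3 without transgenic 2) and 0 fell, with 7 positive and 2 negative values. Their summed level was 11.16 to 11.78 in controls and 12.41 to 12.78 in transgenic hearts. The transgenic sums lay above every control, whereas the transgenic values of Nr2f2 lay below every control. Of these markers Dkk3 rose by 1.49. Myl7 also rose, but its call was lost without control 2 (limma adjusted p = 0.0639), transgenic 2 (0.137) or transgenic 3 (0.131). The negative values were those of Bmp10 (-0.11) and Kcnj3 (-0.19), which did not pass (limma adjusted p = 0.7385 and 0.34). The part of the atrial markers in the Nr2f2 values was not tested.

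**Figure D4:**
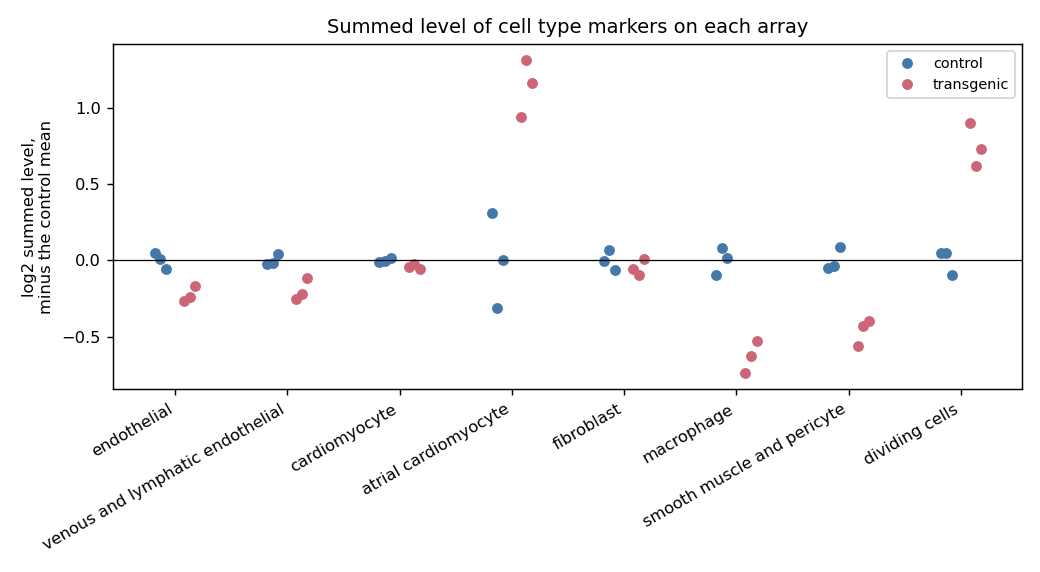
Summed linear level of each list of cell type markers on each array, on the log2 scale and relative to the control mean, with controls in blue and transgenic hearts in red. Macrophage, endothelial, venous and lymphatic, and smooth muscle and pericyte sums are lower on all 3 transgenic arrays, as are, by a small margin, cardiomyocyte sums. Atrial and dividing cell sums are higher on all 3, while fibroblast sums overlap.

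Genes of dividing cells moved most uniformly. Of 11 measured, 11 rose (7 without transgenic 1 or transgenic 3, and 8 to 10 without another array), and the summed level was 10.35 to 10.49 in controls and 11.06 to 11.35 in transgenic hearts. Tacc3 and Kif18b rose on the same arrays. Kdm1a did not pass the test, with all 3 transgenic values above the controls, nor did Suz12, whose groups overlapped. Of 10 macrophage markers 7 fell and 0 rose, with sums of 10.72 to 10.895 in controls and 10.07 to 10.28 in transgenic hearts. Of 10 smooth muscle and pericyte markers 4 fell (2 without transgenic 1 or transgenic 3) and 1 rose (2 without control 3). Of 10 fibroblast markers 1 fell and 1 rose (0 without any 1 array). Of 10 cardiomyocyte markers 0 changed at an adjusted p of 0.05 by limma, with 2 at an unadjusted p under 0.05, and their sums were 16.04 to 16.07 and 16.00 to 16.03. The part of these cell types in the values of the targets was not tested.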

How the data were processed

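Per the submitters' processing notes, oligo, RMA and limma were used, and the deposited table holds a log2 expression value for every probe on every array. Background correction, versions, annotation and filters: not given in the sources used here. Of 41345 probes, 23521 had 1 gene symbol in the platform annotation, 1814 several and 16010 none. Probes with 1 symbol were kept, 1 per gene (highest mean over 6 arrays), which gave 22180 genes. Groups were compared (transgenic minus control, log2) in limma 3.58.1 under R 4.3.3 by lmFit and eBayes without covariates. Adjusted p-values are Benjamini-Hochberg values across the 22180 genes, with a threshold of 0.05. Intervals are 95% intervals of that fit. The steps were tested on simulated data, with 50 changed genes for each size of change. Only 2% of the genes were recovered when their change was 1.25-fold. The share rose to 52% for genes changed 1.5-fold and 80% for those changed 2-fold. It reached 98% when the change was 4-fold. False calls numbered 3.

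The targets and the gene lists were chosen with earlier results of these data known. The genes named are all targets, their close relatives, the cluster, the list genes that passed the test, and the 3 genes most correlated with each of the 2 targets of smallest p. Further genes (Rcor1, Hdac1, Hdac2, Ezh1, Ezh2, Eed, Rxra, Rxrb, Dkk3, Myl7, Bmp10, Kcnj3, Aplnr, Lyve1, Vwf, Prox1, Pdpn, Mmrn1 and those of other microRNAs) were named after their values were seen. Alternatives dropped the dimmest 0.333 of the genes, averaged or separately tested probes, renewed quantile normalization, centred arrays, used an intensity trend with robust variance, array weights or the replicate number as a block, and left out each array in turn. Target sites were not analysed here, because untranslated regions were not used. Matched identifiers in RefSeq (GRCm38.p6) were found for all 9 targets. Arrays of a group correlated at 0.982 to 0.989 and arrays of different groups at 0.974 to 0.983 over all probes, and array medians ran from 5.45 to 5.54.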

Additional observations from a re-analysis of the deposited data

How the results depend on the processing

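The number of genes called was 2465, and 1171 to 2249 when 1 array was left out (transgenic 2 gave 1171, transgenic 1 gave 1217, control 1 gave 1378 and transgenic 3 gave 1553). In the 8 other alternatives it lay between 1886 and 3168. Of the called genes 48.2% were higher in transgenic hearts, 36.4% after a repeated quantile normalization and 38.1% with centred arrays, which moved the median of all genes by -0.03 and -0.04 on the log2 scale. The count of targets called lower, 1 (Dazap2), was 0 when every probe was tested and 0 to 1 when 1 array was left out. The count of targets called higher, 0, was 1 (Kdm1a) without the dimmest genes and 1 with an intensity trend and robust variance, and 0 without any 1 array. Of 112 counts over the 8 lists, 73 stayed within 1.5 times the reported count. The replicate number as a block gave 1996 genes called, with 1 target lower and 0 higher, and 11 complex or family genes higher and 2 lower. Same-numbered arrays did not deviate together (correlations 0.02, -0.13 and 0.01). These correlations cannot show whether arrays of the same number were handled together. The fits that leave out 1 array rest on 2 arrays in a group. The causes of these changes were not tested. Precision is limited by having 3 arrays per group.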
